A study of Mus musculus with 4 samples.

Results

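NRF2 targets and antioxidant enzymes were followed in the mouse macrophage line RAW264.7 under LPS (lipopolysaccharide, a bacterial cell wall component) and under an siRNA pool against Ruvbl2. The set was a list of 34 gene symbols covering the NRF2 regulators, the enzymes of glutathione, thioredoxin, superoxide, NADPH and heme metabolism, and enzymes that act on quinones, epoxides and aldehydes. All 34 of them had a probe, out of 22911 genes named on the array. The list was drawn up by pathway role, and no measured value entered its rule.

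The study had 4 groups, and RNA of each was read on a single Agilent mouse array with 1 dye. The groups were a SMARTpool siRNA against Ruvbl2 with LPS, the same pool with DMSO (the vehicle), a control siRNA (non-targeting) with LPS, and the control siRNA with DMSO. The sample titles spell the pool "siRvbl2", and it was taken as Ruvbl2 from the series title and design. The labels place the analysis 2 days after transfection and give 2 transfection methods (electroporation and a lipid reagent) without saying which served these samples, and no source used here gives the LPS dose or how long it was applied. The siRNA is a transient pool. By the brighter of 2 Ruvbl2 probes most of the target RNA remained, at 75.7% of control siRNA in LPS and 79.2% in DMSO. Ruvbl2 was thus 1.32-fold and 1.26-fold lower, under 2-fold in both treatments. The dimmer probe is not reported here.

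The level of a gene is its processed signal on the log2 scale after the 75th percentile of its array is subtracted, and levels are compared only within a probe. A single array stood for each group, so replicate error could not be measured, p-values were not given, and precision was limited by how few arrays there were. In such bulk RNA, fewer cells with a transcript and less transcript per cell cannot be told apart. Error between spots of 1 array was taken from 300 probes printed 10 times. For a log2 difference this technical SD came to 0.06 where levels were above 3, 0.13 from -2 to 3, 0.27 from -4 to -2 and 0.49 below that. In the same order these SDs rest on 1071, 18, 23 and 11 readings of a probe on an array, so all but the first rest on few. These figures leave out the variation between cultures. Differences of at least 1 on the log2 scale (2-fold), with the gene well above background, are named as called. The position on the slide and the siRNA cannot be told apart, because the Ruvbl2 siRNA arrays filled row 2 and the control siRNA arrays row 1. The spike-in RNAs read higher on the Ruvbl2 siRNA DMSO array, at a median level of 3.95, against 3.64 on the control siRNA DMSO array. Scaling on them added 0.37 to every LPS difference with Ruvbl2 siRNA and -0.30 to every siRNA difference in DMSO, where 15 and 19 of the 32 measured members changed sign, none of them called. In LPS between siRNAs and in LPS with control siRNA 0 members changed sign. In the difference between the LPS responses 9 changed sign, none of them called. Of 10 macrophage markers, 9 or 10 were well above background on each array, and all 14 epithelial, fibroblast, hepatocyte, B cell and mast cell markers were below it except the B cell gene Cd79a on the control siRNA DMSO array. Markers of other cells that were above it were the T cell gene Cd3e on all arrays (levels from 0.06 to 0.23, with Cd3g and Cd2 below background) and the endothelial genes Pecam1 on all arrays and Kdr on all but the Ruvbl2 siRNA DMSO array, with Cdh5 below background. Their part in the results was not tested. Nos2, an LPS-induced gene, was 24.8-fold higher with LPS under Ruvbl2 siRNA and 48.8-fold under control siRNA.

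NRF2, encoded by Nfe2l2, is a transcription factor that KEAP1 holds back by marking it for degradation. When electrophiles or oxidants modify KEAP1, NRF2 accumulates, pairs with a small MAF protein and binds antioxidant response elements in its target genes. Its control is therefore largely at the protein level, which an RNA array does not read. In macrophages the targets supply glutathione, thioredoxin and NADPH and break down heme, and these products limit damage from the oxidants that activated macrophages make.

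The core of the antioxidant response element, TGACNNNGC on either strand, was looked for in the promoters of the members, since it is the sequence through which NRF2 acts. RefSeq promoter stretches (GRCm38.p6, 250 bases before to 50 after a gene's start) were at hand for 27 of the 34 members. The other 7, Hmox1, Aldh3a1, Gclc, Gsr, Gsta4, Abcc1 and Prdx6, had none. Of the 27, 10 had the core in at least 1 of their stretches. Over the whole promoter set 3781 of 27025 genes had it, and 12.4% of the 32851 stretches. The 10 matches are shown with 10 bases on each side, read along the strand that holds the core, which is in capitals.
Nfe2l2 (chr2:75704885-75704913, minus strand): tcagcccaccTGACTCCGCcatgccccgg
Mafg (chr11:120633751-120633779, plus strand): ctcgccgggtTGACCGTGCtcctgcagag
Gclm (chr3:122245413-122245441, minus strand): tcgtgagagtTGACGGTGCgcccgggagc
Prdx1 (chr4:116685456-116685484, minus strand): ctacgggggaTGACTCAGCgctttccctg
Txnrd1 (chr10:82859104-82859132, minus strand): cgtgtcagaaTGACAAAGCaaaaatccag
Srxn1 (chr2:152105542-152105570, minus strand): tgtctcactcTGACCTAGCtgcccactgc
Sod1 (chr16:90220696-90220724, minus strand): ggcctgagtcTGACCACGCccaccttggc
Me1 (chr9:86695902-86695930, minus strand): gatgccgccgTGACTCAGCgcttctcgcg
G6pdx (chrX:74428919-74428947, plus strand): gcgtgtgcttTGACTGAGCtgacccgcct
Pgd (chr4:149166061-149166089, minus strand): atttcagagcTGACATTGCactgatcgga
Prdx1 and Me1 carried the same 9 letters. The core began 133 bases before the start of Prdx1 and 6 bases before that of Me1. In Pgd and Srxn1 it lay after the start, from positions 4 and 29. In Txnrd1, Pgd and Me1 the core lay in 1 of several stretches listed for the gene. A match is a description of these letters and not of a bound site.

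A second form, TGANTCAGC, was looked for after the values and the sequences had been seen. It was present in 5 of the 27 members, Prdx1, Me1, Srxn1, Osgin1 and Gstp1, and in 1.37% of the 27025 genes. In Prdx1 and Me1 it is the same letters as the core above. Stretches of 250 bases before the start are shown for genes picked because they differ in response. Prdx1 has both forms, and its level was close on all arrays. Gstp1 has the second form and was called higher with LPS under control siRNA. Prdx5 has neither in the stretch and was called higher with LPS under both siRNAs. A link between these letters and the response was not tested. Capitals mark a match.
Prdx1 (chr4:116685349-116685598, plus strand): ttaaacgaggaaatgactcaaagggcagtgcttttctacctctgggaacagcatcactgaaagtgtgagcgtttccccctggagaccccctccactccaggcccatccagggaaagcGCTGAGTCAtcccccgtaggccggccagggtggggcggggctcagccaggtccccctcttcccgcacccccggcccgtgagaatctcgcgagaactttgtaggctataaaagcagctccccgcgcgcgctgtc
Gstp1 (chr19:4037913-4038162, minus strand): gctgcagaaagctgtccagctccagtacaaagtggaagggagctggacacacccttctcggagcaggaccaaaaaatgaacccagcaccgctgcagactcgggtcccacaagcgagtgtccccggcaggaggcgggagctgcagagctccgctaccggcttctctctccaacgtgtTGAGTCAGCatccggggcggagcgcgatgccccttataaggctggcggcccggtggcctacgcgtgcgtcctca
Prdx5 (chr19:6910107-6910356, minus strand): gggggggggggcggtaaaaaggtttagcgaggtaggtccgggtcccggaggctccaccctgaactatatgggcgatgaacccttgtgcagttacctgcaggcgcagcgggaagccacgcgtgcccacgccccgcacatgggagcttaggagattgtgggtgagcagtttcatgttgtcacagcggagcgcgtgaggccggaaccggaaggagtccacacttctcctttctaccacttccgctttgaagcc

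Of the 34 members, 32 were well above background on all 4 arrays, against 12471 of the 22911 genes. The exceptions were Nqo1 and Gsta4. Nqo1, a quinone reductase and a standard marker of NRF2 activity, and Gsta4, a glutathione transferase for lipid aldehydes, were not well above background on any array and were not compared. Their readings ran from -7.09 to -5.19 for Nqo1 and from -7.05 to -5.14 for Gsta4.

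With Ruvbl2 siRNA, LPS against DMSO gave 3 members called higher, Aldh3a1, Hmox1 and Prdx5, and 1 called lower, Gstm1, of 32 compared. The share of all genes called was 6.21%, with 4.14% higher and 2.07% lower. With control siRNA, 4 members were called higher, Gstp1, Prdx5, Slc7a11 and Blvrb, and 0 lower, where 7.95% of all genes were called, 5.74% higher and 2.21% lower. The median difference of the 32 members was -0.14 with Ruvbl2 siRNA (all genes -0.03) and -0.13 with control siRNA (all genes -0.00015). Most of the set stayed within 2-fold of its DMSO level under either siRNA, and so did most of all genes. Staying within 2-fold therefore does not set the members apart. The first median turned positive with spike-in scaling (0.23, all genes 0.33). The median of the members minus that of all genes was -0.10, which this scaling could not change because it shifts every gene alike. That distance was -0.05 with normexp correction and -0.08 with quantile normalization.

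Between siRNAs, 0 of 32 members were called in either direction in LPS, where 2.52% of all genes were called, 1.06% higher and 1.46% lower. In DMSO 0 were called higher and 2 lower, Aldh3a1 and Hmox1, where 1.55% of all genes were called, 1.01% higher and 0.537% lower. The median of the members was 0.08 in LPS (all genes 0.00) and 0.16 in DMSO (all genes 0.04). In DMSO 26 of the 32 lay above 0, or 81.3%, where 58.4% of all genes did. With spike-in scaling 7 members lay above 0 and the median was -0.14 (all genes -0.26), so that direction turned. The median of the members minus that of all genes was 0.12, which spike-in scaling could not change because it shifts every gene alike. It was 0.10 with normexp correction and 0.08 with quantile normalization. The difference of the LPS responses, Ruvbl2 siRNA minus control siRNA, was called higher for Aldh3a1 and Hmox1 and lower for Gstp1. Of the 12471 genes measured on all 4 arrays 1.69% were called, 0.513% higher and 1.18% lower. These comparisons share arrays, and each array enters 2 pairwise comparisons.

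**Figure D1:**
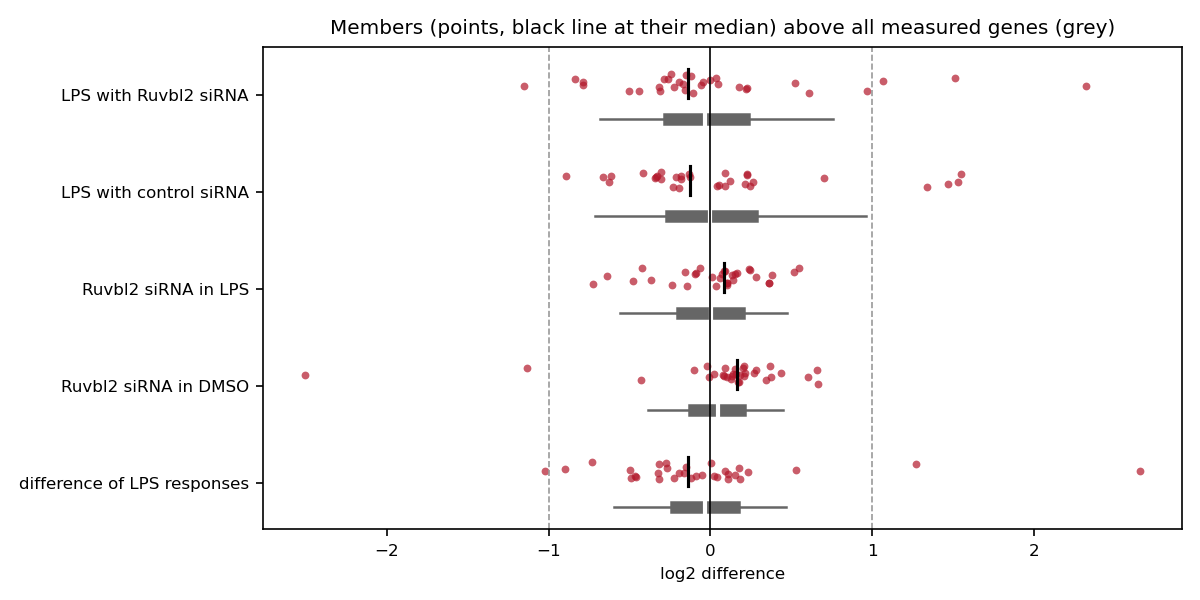
Log2 differences (horizontal axis) in the 5 comparisons for the 32 members well above background (red points, spread vertically only to show them) with their median (black line), above the range of all measured genes (grey thin line from the 5th to the 95th percentile, thick line the middle of the distribution from the 25th to the 75th, white gap at the median). The dashed lines mark the 2-fold rule, and the points far from the rest are Aldh3a1 and Hmox1 in the comparisons that use the Ruvbl2 siRNA DMSO array.

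Among the regulators, the RNA of NRF2 itself and of its partners moved little. Nfe2l2 had levels of 4.05 in LPS and 4.36 in DMSO with Ruvbl2 siRNA, and of 3.81 in LPS and 4.14 in DMSO with control siRNA. It was lower with LPS by a like amount under each siRNA, -0.31 and -0.33, and higher with Ruvbl2 siRNA by 0.24 in LPS and 0.22 in DMSO. With spike-in scaling the LPS difference with Ruvbl2 siRNA was 0.06 and the siRNA difference in DMSO -0.09, so neither direction held. Keap1, the NRF2 inhibitor, had levels of 4.67 in LPS and 4.45 in DMSO with Ruvbl2 siRNA, against 4.57 in LPS and 4.87 in DMSO with control siRNA. Its LPS differences were 0.22 with Ruvbl2 siRNA and -0.30 with control siRNA, and the control siRNA DMSO array was the highest. Mafg, a small MAF partner of NRF2, lay between 4.64 and 4.81 on the 4 arrays.

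Sqstm1 encodes p62, an autophagy receptor that binds KEAP1 and is itself an NRF2 target. It was highest on the control siRNA LPS array. Its levels were 6.19 in LPS and 6.39 in DMSO with Ruvbl2 siRNA, against 6.91 in LPS and 6.21 in DMSO with control siRNA. The LPS difference was -0.20 with Ruvbl2 siRNA and 0.70 with control siRNA, and the siRNA difference in LPS was -0.73. Its dimmer probe gave 0.44 and 0.98 for the LPS differences and -0.54 for the siRNA difference in LPS. Both probes thus read lower in LPS with Ruvbl2 siRNA, by under 2-fold, and they disagreed on the sign of the LPS difference with Ruvbl2 siRNA.

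In the glutathione arm, LPS went with higher RNA for the cystine importer and with lower RNA for the catalytic enzyme of synthesis. Slc7a11 encodes the cystine importer of system xc-, which supplies the cysteine for glutathione. Its levels were -0.06 in LPS and -1.03 in DMSO with Ruvbl2 siRNA, against 0.36 in LPS and -1.11 in DMSO with control siRNA. Both LPS arrays stood above both DMSO arrays. The LPS difference was 0.97 with Ruvbl2 siRNA (1.96-fold, under the rule) and 1.47 with control siRNA (2.77-fold). With spike-in scaling the first was 1.34 (2.53-fold) and was called. Its dimmer probe gave 0.56 and 0.40, and the mean of both probes put the control siRNA value at 0.93, under 2-fold. The probes also disagreed between siRNAs in LPS, at -0.42 and 0.41.

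Gclc, the catalytic subunit of glutamate-cysteine ligase and the rate-limiting step of glutathione synthesis, was lower with LPS under each siRNA without reaching 2-fold. Its levels were 3.10 in LPS and 3.89 in DMSO with Ruvbl2 siRNA, and 2.97 in LPS and 3.86 in DMSO with control siRNA. The LPS differences were -0.79 and -0.90, and the siRNA differences were 0.13 in LPS and 0.02 in DMSO. Gclm, the modifier subunit of the same enzyme, differed from it. Gclm had levels of 3.85 in LPS and 3.80 in DMSO with Ruvbl2 siRNA, against 3.46 in LPS and 3.65 in DMSO with control siRNA. Its LPS differences were 0.05 and -0.18, so the pair of subunits did not go together under LPS.

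The glutathione peroxidases and the reductase were read by bright probes. Gpx1, a selenoprotein that reduces hydrogen peroxide with glutathione, had levels of 7.50 in LPS and 7.79 in DMSO with Ruvbl2 siRNA, against 6.99 in LPS and 7.12 in DMSO with control siRNA. Both Ruvbl2 siRNA arrays stood above both control siRNA arrays, by 0.52 in LPS and 0.67 in DMSO (1.43-fold and 1.59-fold). With spike-in scaling the DMSO value was 0.36. Gpx4, which reduces lipid peroxides in membranes, differed by -0.16 in LPS and 0.16 in DMSO between siRNAs, and by -0.44 and -0.13 with LPS under Ruvbl2 and control siRNA. Gsr, which regenerates glutathione, lay between 5.17 and 5.33 on all arrays.

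The glutathione transferases went in different directions. Gstp1 encodes the pi-class transferase. It had levels of -1.11 in LPS and -1.64 in DMSO with Ruvbl2 siRNA, against -0.74 in LPS and -2.29 in DMSO with control siRNA. Both LPS arrays stood above both DMSO arrays, with an LPS difference of 0.53 with Ruvbl2 siRNA and 1.55 with control siRNA (2.93-fold). The difference between these responses was -1.02, with a technical SD of 0.25, and it came under 2-fold with normexp correction (-0.74), quantile normalization (-0.99) and spike-in scaling (-0.73). Mouse Gstp1 has a near-identical neighbour, Gstp2, and the files give no probe sequence to tell them apart.

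Gstm1, a mu-class transferase, was lower in LPS. Its levels were 0.35 in LPS and 1.503 in DMSO with Ruvbl2 siRNA, against 0.50 in LPS and 1.16 in DMSO with control siRNA. The LPS differences were -1.15 (2.22-fold lower) and -0.66 (1.58-fold lower), and both LPS arrays stood below both DMSO arrays. The dimmer Gstm1 probe gave -0.58 and -0.74, and the mean of both probes put the first value at -0.87. The mu class also has close relatives that may share a probe. Abcc1, an exporter of glutathione conjugates, lay between 2.87 and 3.14.

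In the thioredoxin arm 5 of 6 members stayed close to their DMSO levels, and Prdx5 did not. Prdx5 encodes a peroxiredoxin found in mitochondria, peroxisomes and cytosol. It had levels of 5.50 in LPS and 4.43 in DMSO with Ruvbl2 siRNA, against 5.97 in LPS and 4.44 in DMSO with control siRNA. Both LPS arrays stood above both DMSO arrays, by 1.07 with Ruvbl2 siRNA (2.09-fold) and by 1.53 with control siRNA (2.89-fold). It was called with LPS under both siRNAs, and the first value was 0.99 with normexp correction. In LPS it was lower with Ruvbl2 siRNA, at -0.48, and in DMSO the siRNAs were level, at -0.01.

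Srxn1 encodes sulfiredoxin, which repairs overoxidized peroxiredoxins and is a widely used NRF2 target. Its levels were 4.11 in LPS and 4.16 in DMSO with Ruvbl2 siRNA, against 4.01 in LPS and 3.79 in DMSO with control siRNA. The control siRNA DMSO array was the lowest, and the siRNA difference in DMSO was 0.37. Txnrd1, thioredoxin reductase of the cytosol, had levels of 4.995 in LPS and 5.26 in DMSO with Ruvbl2 siRNA, against 4.64 in LPS and 5.05 in DMSO with control siRNA. Its LPS differences were -0.26 and -0.42, its second probe gave -0.32 and -0.52, and the first turned positive with spike-in scaling. Txn1, the thioredoxin that it reduces, had levels from 6.41 to 6.81, also highest in DMSO with Ruvbl2 siRNA and lowest in LPS with control siRNA.

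Prdx1 and Prdx6, peroxiredoxins of the cytosol, had the narrowest ranges of level among the 6 thioredoxin members. Prdx1 differed by 0.23 and 0.22 with LPS under Ruvbl2 and control siRNA and by 0.10 between siRNAs in both treatments. Its 3 probes gave LPS differences from 0.23 to 0.35 with Ruvbl2 siRNA and from 0.18 to 0.27 with control siRNA, so the sign was shared. Prdx6 lay between 6.08 and 6.26, and its probes disagreed between siRNAs, at 0.06 and -0.19 in LPS.

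**Figure D2:**
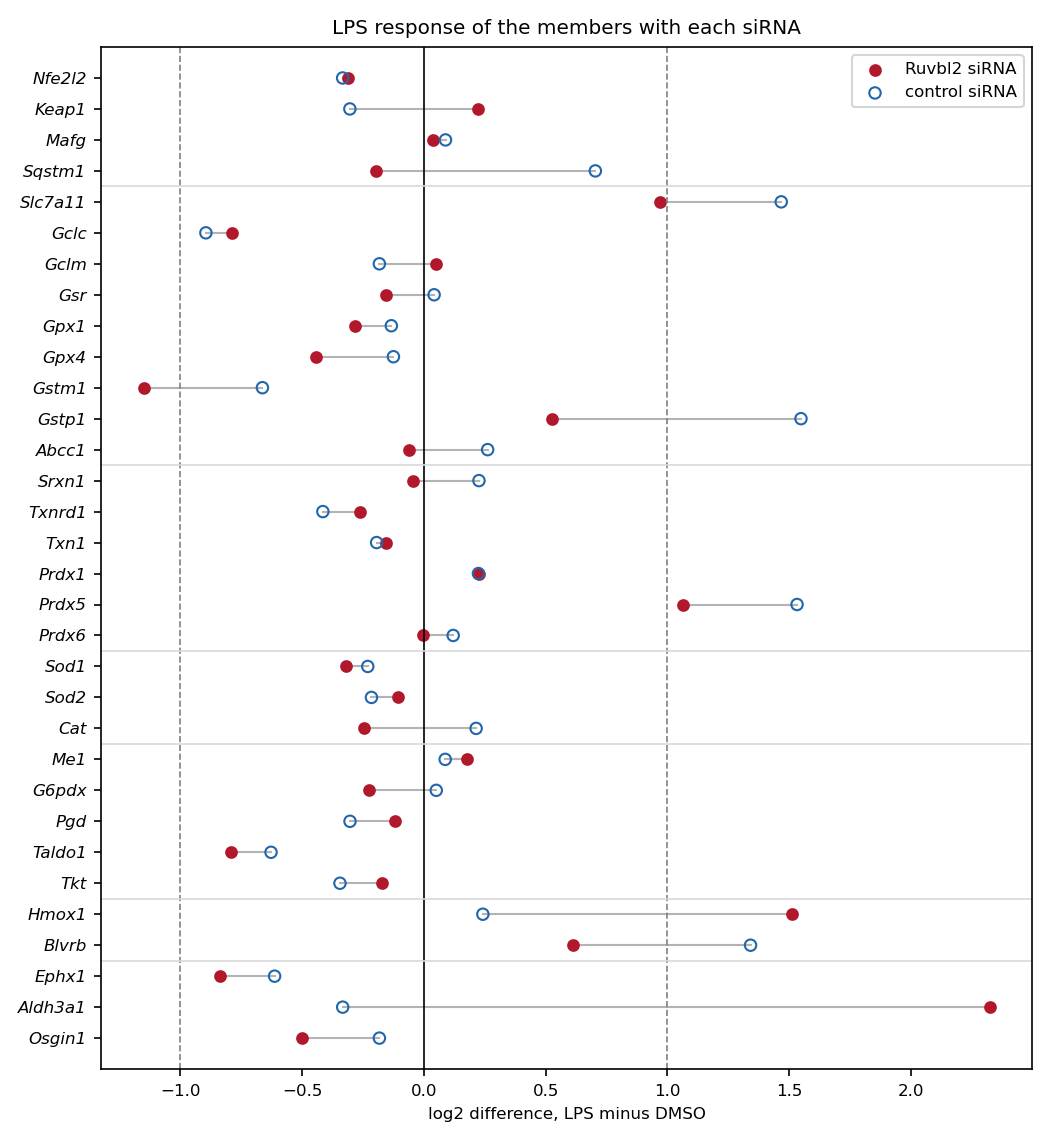
LPS response of each of the 32 members well above background (rows, grouped by role with grey lines between the regulators, glutathione, thioredoxin, superoxide, NADPH, heme and the last group). The horizontal axis is the log2 difference, LPS minus DMSO, filled points are Ruvbl2 siRNA and open points control siRNA, each from 1 pair of arrays. The dashed lines mark 2-fold. Aldh3a1 and Hmox1 lie further right with Ruvbl2 siRNA, while Gstp1, Sqstm1 and Blvrb lie further right with control siRNA.

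The enzymes of superoxide and hydrogen peroxide showed no call. Sod2, the mitochondrial superoxide dismutase, is known as an NF-kB target in many cells. Its levels were 1.88 in LPS and 1.99 in DMSO with Ruvbl2 siRNA, against 1.34 in LPS and 1.55 in DMSO with control siRNA. The LPS differences were -0.11 (0.26 with spike-in scaling) and -0.22, and both Ruvbl2 siRNA arrays stood above both control siRNA arrays, by 0.54 in LPS and 0.44 in DMSO (0.13 with spike-in scaling). Sod2 was read by a single probe. Sod1, the copper-zinc enzyme of the cytosol, lay between 7.90 and 8.30, and Cat, the catalase of peroxisomes, between 1.17 and 1.54.

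NADPH supplies the reducing power for both glutathione and thioredoxin, and none of the 5 members listed under NADPH was called. Taldo1, transaldolase of the pentose phosphate pathway, was lower with LPS under both siRNAs. Its levels were 7.24 in LPS and 8.03 in DMSO with Ruvbl2 siRNA, against 7.20 in LPS and 7.83 in DMSO with control siRNA. The differences were -0.79 and -0.63 (1.73-fold and 1.55-fold lower), and its second probe gave -0.57 under each siRNA. G6pdx, which opens the pathway, lay between 6.18 and 6.46, Pgd, its second dehydrogenase, between 5.65 and 5.96, and Tkt, transketolase, between 7.01 and 7.35. Me1, the cytosolic malic enzyme, had levels of 3.15 in LPS and 2.97 in DMSO with Ruvbl2 siRNA, against 2.78 and 2.70 with control siRNA. Its second probe gave siRNA differences of 0.01 in LPS and 0.06 in DMSO, against 0.36 and 0.27 by the first. That probe gave LPS differences of 0.61 with Ruvbl2 siRNA and 0.66 with control siRNA, against 0.18 and 0.09 by the first. The 5 differed between siRNAs in LPS by 0.01 to 0.36, the smallest within the technical error.

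Both heme enzymes differed between the arrays, and not in the same way. Hmox1, heme oxygenase 1, splits heme into biliverdin, iron and carbon monoxide. Its levels were 4.96 in LPS and 3.45 in DMSO with Ruvbl2 siRNA, against 4.82 in LPS and 4.58 in DMSO with control siRNA. The Ruvbl2 siRNA DMSO array stood apart, below the other 3, which were close to one another. The siRNA difference was 0.14 in LPS and -1.13 in DMSO (2.19-fold lower). The LPS difference was 1.51 with Ruvbl2 siRNA (2.85-fold higher) and 0.24 with control siRNA, and the difference between these responses was 1.27, with a technical SD of 0.09. Hmox1 was read by 1 probe. These 3 calls rest on that 1 array and held under all 7 alternative settings, with the siRNA difference in DMSO between -1.44 and -1.06. Of these settings, the deposited value table, the minimum level and the mean of probes could not move a gene with 1 bright probe.

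Blvrb encodes biliverdin reductase B, a flavin reductase. Its levels were 3.26 in LPS and 2.65 in DMSO with Ruvbl2 siRNA, against 3.90 in LPS and 2.56 in DMSO with control siRNA. Both LPS arrays stood above both DMSO arrays, by 0.61 with Ruvbl2 siRNA and by 1.34 with control siRNA (2.53-fold). In LPS it was lower with Ruvbl2 siRNA by -0.64 (1.56-fold), under the rule, and in DMSO the siRNA difference was 0.09. Hmox1 and Blvrb thus differed between siRNAs on different arrays, Hmox1 in DMSO and Blvrb in LPS.

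In the last group, Aldh3a1 showed the largest difference of any measured member in each of the 3 comparisons that use the Ruvbl2 siRNA DMSO array. Aldh3a1 is an aldehyde dehydrogenase that clears aldehydes from lipid peroxidation. Its levels were 0.11 in LPS and -2.21 in DMSO with Ruvbl2 siRNA, against -0.04 in LPS and 0.29 in DMSO with control siRNA. Again the Ruvbl2 siRNA DMSO array stood apart and the other 3 were close. The siRNA difference was 0.15 in LPS and -2.51 in DMSO (5.68-fold lower), and the LPS difference was 2.32 with Ruvbl2 siRNA (5.01-fold higher) and -0.33 with control siRNA. The difference between responses was 2.66, with a technical SD of 0.25. These calls too rest on that 1 array and on 1 probe. They held under all 7 alternative settings, of which those named for Hmox1 could not move them. Normexp correction lowered the folds to 3.54 for the siRNA difference in DMSO, 3.32 for LPS with Ruvbl2 siRNA and 3.88 for the difference between responses.

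Ephx1, the microsomal epoxide hydrolase, was lower with LPS by -0.84 with Ruvbl2 siRNA (1.79-fold) and by -0.61 with control siRNA (1.53-fold). Its levels were 1.55 in LPS and 2.39 in DMSO with Ruvbl2 siRNA, against 1.65 in LPS and 2.26 in DMSO with control siRNA, so both LPS arrays stood below both DMSO arrays. Osgin1, an NRF2-responsive growth inhibitor, had levels of 0.67 in LPS and 1.17 in DMSO with Ruvbl2 siRNA, against 0.39 and 0.57 with control siRNA. It was higher with Ruvbl2 siRNA by 0.28 in LPS and 0.60 in DMSO (0.30 with spike-in scaling).

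**Figure D3:**
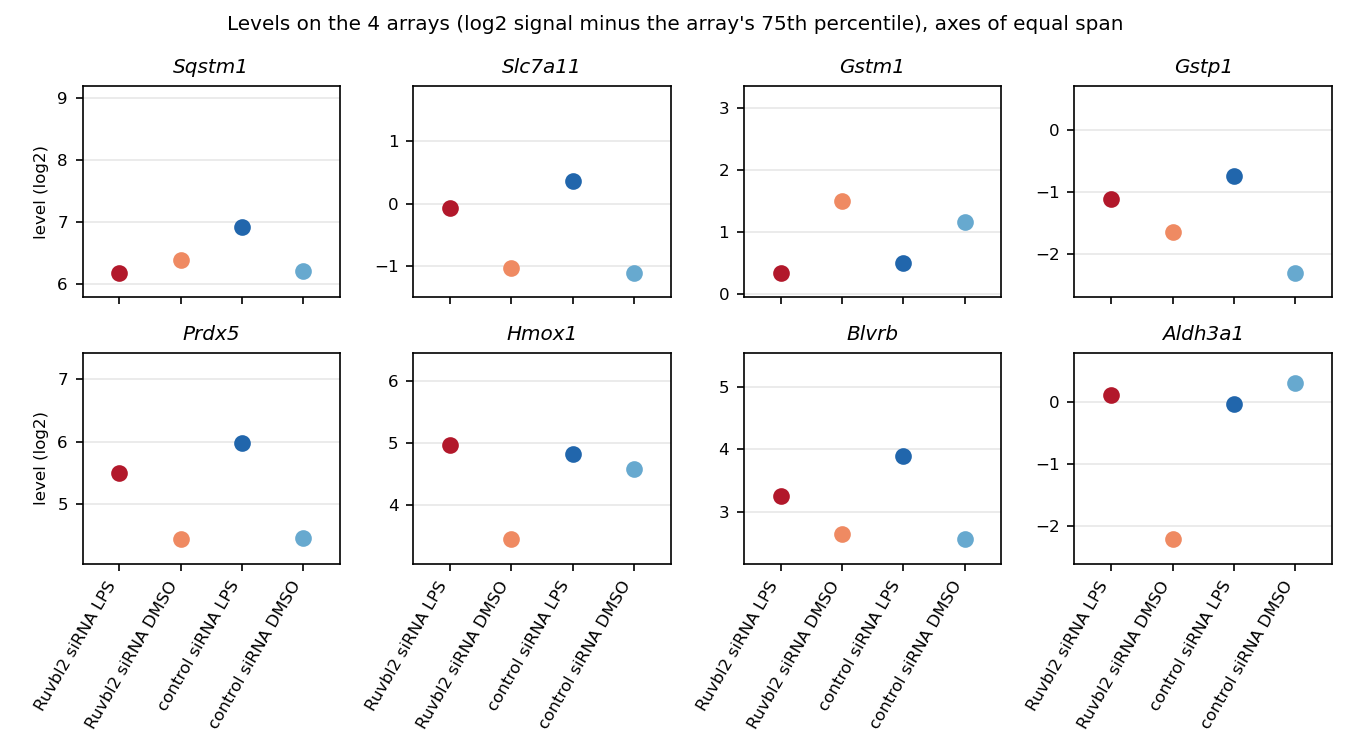
Level on each of the 4 arrays (vertical axis, log2 signal minus the array's 75th percentile) for the 7 members called in any comparison and for Sqstm1. Each point is 1 array, groups run along the horizontal axis, and every panel spans the same number of log2 units. Hmox1 and Aldh3a1 are low on the Ruvbl2 siRNA DMSO array alone, at 3.45 and -2.21, while Prdx5, Slc7a11, Gstp1 and Blvrb are higher on both LPS arrays.

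Read by siRNA, some members had differences of the same sign in both treatments. Gpx1, Sod2, Me1, Gclm, Txnrd1, Txn1, Osgin1 and Nfe2l2 were higher with Ruvbl2 siRNA in LPS by 0.24 to 0.54 and in DMSO by 0.15 to 0.67. These members, and those named next, were picked after their values were seen. With spike-in scaling the DMSO values of Gclm, Txnrd1, Txn1, Nfe2l2 and Me1 lay between -0.15 and -0.03. Sqstm1, Blvrb, Prdx5 and Slc7a11 were lower in LPS by -0.42 to -0.73 and differed by -0.01 to 0.18 in DMSO, or by -0.31 to -0.13 there with spike-in scaling. The second Slc7a11 probe went the other way in LPS (0.41). The second Me1 probe gave 0.01 in LPS and 0.06 in DMSO, and the second Txnrd1 probe 0.27 and 0.07. Over all genes 50.8% lay above 0 in LPS and 58.4% in DMSO. None of the members named here reached 2-fold between siRNAs.

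**Figure D4:**
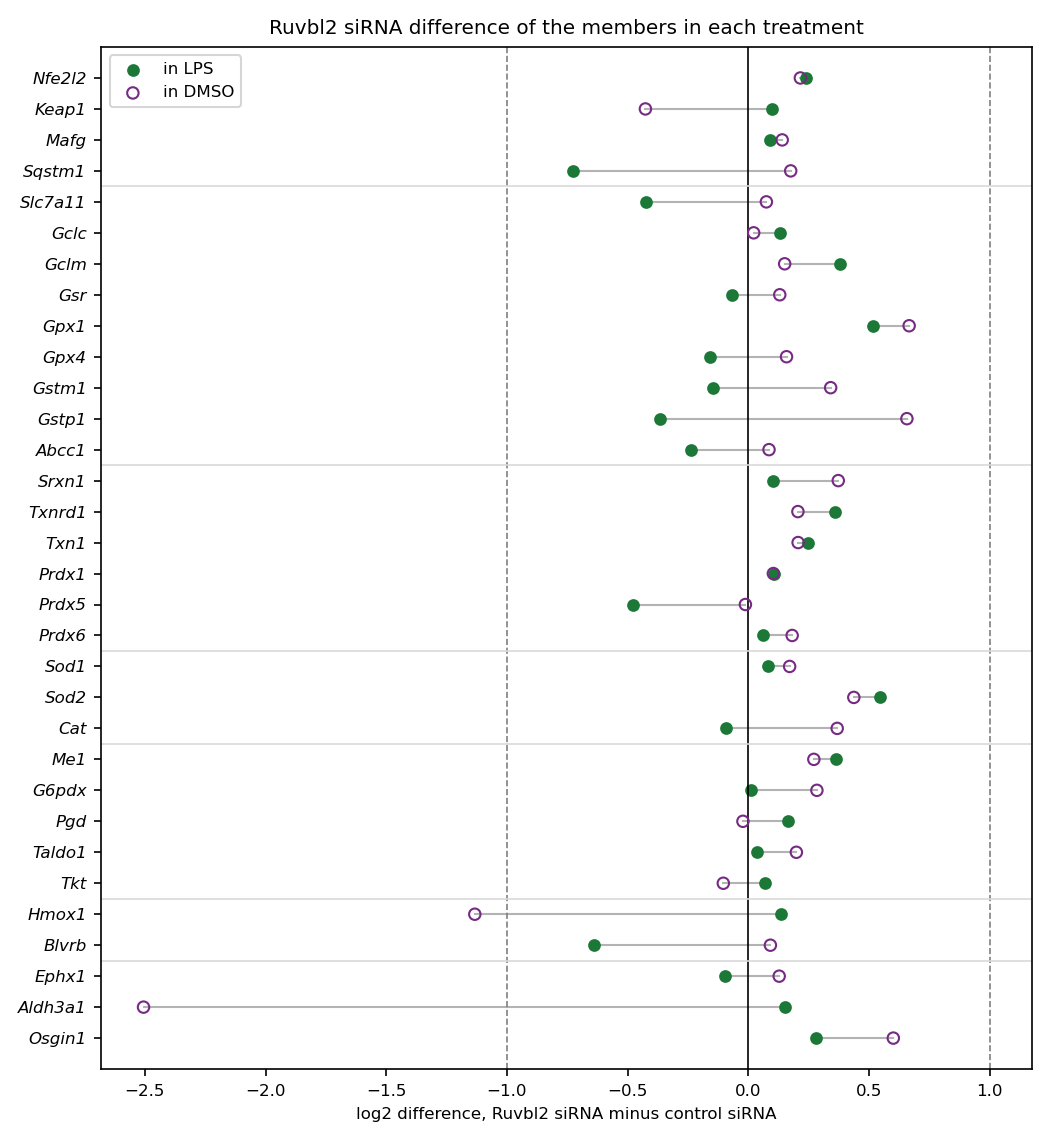
Difference between Ruvbl2 siRNA and control siRNA for each of the 32 members (rows, grouped by role as for the LPS response). The horizontal axis is the log2 difference, Ruvbl2 siRNA minus control siRNA, filled points are LPS and open points DMSO, each from 1 pair of arrays. The dashed lines mark 2-fold, which only the open points of Hmox1 (-1.13) and Aldh3a1 (-2.51) pass.

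Set against the promoter letters, the 10 members with the TGACNNNGC core differed by less than 2-fold in all 5 comparisons. By the brightest probe of each, their LPS differences ran from -0.32 to 0.23 with Ruvbl2 siRNA and from -0.42 to 0.23 with control siRNA. The medians were -0.08 and -0.07. Dimmer probes of these members passed the ranges, at 0.61 and 0.66 for Me1 and 0.35 and 0.27 for Prdx1. A dimmer Txnrd1 probe gave -0.52 with control siRNA. Of the 17 members with a promoter stretch and no core, 16 were measured, with LPS differences from -1.15 to 1.07 and from -0.66 to 1.55, and their medians were -0.18 and -0.16. The 5 called members that had a stretch, Slc7a11, Gstp1, Gstm1, Prdx5 and Blvrb, were all among these, though Gstp1 has the second form, TGANTCAGC. Hmox1 and Aldh3a1, also called, had no stretch and are not in this split. Over all genes 1.55% to 7.95% were called in the 5 comparisons, so few calls were to be looked for among 10 genes. The shares of all genes called with and without the core were not computed. The split describes 300-base windows and says nothing of elements further away.

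A wider list of 88 other genes of these pathways with a probe was counted by the same rule, and 71 could be compared in each pairwise comparison. With LPS under Ruvbl2 siRNA 2 were called higher, Gstt1 and Glrx, and 1 lower, Mgst3, where 4.14% of all genes were called higher and 2.07% lower. Spike-in scaling made these counts 5 and 1, and those of all genes 1103 and 120, against 559 and 280. Under control siRNA 5 were called higher, Gstt1, Glrx, Chac1, Ptgr1 and Maff, and 2 lower, Mgst3 and Sesn1, against 5.74% and 2.21% of all genes. Sesn1 was under 2-fold with spike-in scaling (-0.98). Gstt1, a theta-class glutathione transferase, had levels of 0.45 in LPS and -3.33 in DMSO with Ruvbl2 siRNA, against 0.98 in LPS and -3.26 in DMSO with control siRNA. It was 13.7-fold and 18.9-fold higher with LPS, and normexp correction lowered the log2 differences to 2.53 and 3.0004, against 3.78 and 4.24. Glrx, glutaredoxin, was 2.85-fold and 3.88-fold higher. Mgst3, a microsomal glutathione transferase, was 3.26-fold and 2.53-fold lower. Maff was named after its value was seen.

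Between siRNAs in LPS, 1 of the 71 was called higher, Mgst2 (2.36-fold), and 1 lower, Chac1 (2.67-fold), an enzyme that degrades glutathione. Over all genes 1.06% were called higher and 1.46% lower there. In DMSO 0 of the wider list were called, where 1.55% of all genes were. The difference of LPS responses was called lower for 2 of 70, Chac1 (-1.19) and Ptgr1 (-1.02), a reductase of alkenals, both under 2-fold with spike-in scaling, and Ptgr1 also with normexp correction (-0.90). The wider list had no gene called higher there, where 0.513% of all genes were called higher and 1.18% lower. The median of the wider list was -0.18, against -0.14 for the members and -0.03 for all genes. Spike-in scaling adds 0.30 to every such difference, which made the median 0.16 for the members and 0.26 for all genes, so the negative direction did not hold.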

How the data were processed

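The deposited intensity values were read from the scanner files. The software was Agilent Feature Extraction, version 11.5.1.1 per the file headers and 11.0 in the submitters' processing notes. The processed signal is background-subtracted and detrended within the array and not normalized between arrays. The authors' deposited value table, also intensity, equalled it at all 62976 spots of each array within a relative tolerance of 1e-06. All 4 arrays lay on 1 slide and were scanned once, no spot was saturated, and the 75th percentile of the signal ran from 331 to 456.

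Spots of a probe were averaged without population outliers. Of 56605 RNA probes, 32994 were named through the RefSeq accession and a mouse gene table (GRCm38.p6), giving 22911 genes, while 23611 stayed unnamed. Where probes shared a gene, the brightest over all arrays stood for it, and 8 members had several. Levels are log2 of the deposited intensity, centred on the 75th percentile. A 2-fold difference was called where the brighter array was well above background. A dim array was given its own value or its detection floor, whichever was higher, which no called member needed.

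The rule for named genes allowed every member, with all 4 levels for called members and 9 main NRF2 genes, and up to 4 called genes per direction from the wider list. Members, lists and alternatives were chosen with earlier results of these data known. The calling step was tested on simulated data with changes well past 2-fold and no variation between cultures. That checks the code and says nothing of calls near 2-fold. The planned normexp correction used the median signal, since the files hold no mean signal. Python 3.11.15, numpy 2.4.6, pandas 2.3.3, R 4.3.3 and limma 3.58.1 were used.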

Additional observations from a re-analysis of the deposited data

Results flagged for a closer look

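For 6 members the data held differences of opposite sign under the same contrast, each past 2 technical SDs, with all 4 arrays well above background. The difference between the contrasts was not tested, since each rests on 1 array per group.

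For the LPS response, Keap1 differed by 0.22 with Ruvbl2 siRNA and by -0.30 with control siRNA. Sqstm1 differed by -0.20 with Ruvbl2 siRNA and by 0.70 with control siRNA, but the first value was 0.17 with spike-in scaling and 0.44 by its other probe. Aldh3a1 differed by 2.32 with Ruvbl2 siRNA and by -0.33 with control siRNA.

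For the siRNA difference, Sqstm1 stood at -0.73 in LPS and 0.18 in DMSO, and Gpx4 at -0.16 in LPS and 0.16 in DMSO. With spike-in scaling both DMSO values were negative (-0.13 and -0.14). Gstp1 stood at -0.37 in LPS and 0.66 in DMSO, and at 0.35 in DMSO with spike-in scaling. Hmox1 stood at 0.14 in LPS and -1.13 in DMSO.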

How the results depend on the processing

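No paired analysis was possible because each group had 1 array. For the same reason no array could be left out. No called member changed sign under any of 7 settings: normexp correction, quantile normalization, spike-in scaling, centring on detected probes, averaging a gene's probes, the value table, and a minimum level of -2. The value table and the minimum level cannot change a difference, and averaging probes cannot for a gene with 1 probe. Where a value moved, the cause was not tested. With normexp correction, with quantile normalization and with spike-in scaling the count of members called lower in the difference of LPS responses was 0, against 1. The count called lower with LPS under Ruvbl2 siRNA was 0, against 1, with spike-in scaling and with the mean of probes. Quantile normalization moved the median of the members to 0.098 for Ruvbl2 siRNA in DMSO and to -0.044 for the difference of responses. Spike-in scaling moved the medians to 0.23 (LPS with Ruvbl2 siRNA), -0.059 (LPS with control siRNA), -0.14 (Ruvbl2 siRNA in DMSO) and 0.16 (difference of responses). A 1.5-fold rule was counted over the 32 members and over all genes compared. With LPS under Ruvbl2 siRNA it called 5 members higher and 4 lower (all genes 1232 and 1059 of 13517). Under control siRNA it called 5 and 4 (1609 and 1096 of 13512). For the siRNA in LPS it called 0 and 2 (518 and 708 of 13472), and in DMSO 3 and 2 (500 and 335 of 13418). For the difference of responses it called 2 and 3 (364 and 651 of 12471). The share of promoter stretches with a core was 3.04% where an A had to follow it and 1.19% for TGANTCAGC, a form chosen after seeing the data. Counts over all genes at 2-fold moved too. Normexp correction called 298 genes higher and 116 lower with LPS under Ruvbl2 siRNA (559 and 280 as reported), 450 and 149 under control siRNA (776 and 298), 24 and 72 for the siRNA in LPS (143 and 197), 14 and 25 in DMSO (136 and 72), and 14 and 51 for the difference of responses (64 and 147). Spike-in scaling called 1103 and 120 with LPS under Ruvbl2 siRNA, 69 and 212 for the siRNA in DMSO, and 227 and 61 for the difference of responses. The share of these calls that were higher was then 90.2%, 24.6% and 78.8%, against 66.6%, 65.4% and 30.3% as reported. Probes below a level of -4 had a technical SD of 0.49, which limits what the dimmest genes can show.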
